A study of Gallus gallus with 6 samples.

Results

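Hemoglobin carries oxygen in red cells and myoglobin stores it in muscle fibers. The 5 hemoglobin chains HBAA, HBAD, HBE, HBE1 and HBG1 and myoglobin (MB) were followed in chicken leg muscle. They were chosen by gene symbol, and each symbol had 1 transcript, so that they made up 6 of the 19937 entries of each deposited table. Leg muscle of female Xinghua chickens, an indigenous breed, was taken, with no treatment, from embryos on day 11 (E11) and on day 16 (E16) of incubation and from chicks on day 1 post hatch (D1, named P1 in the labels), with 2 libraries per stage. The libraries were made from total RNA depleted of ribosomal RNA. Each of the 3 tables pairs 2 stages and gives for each transcript 1 FPKM per stage, that is, its fragments scaled to transcript length and to the size of the library, in which the authors merged both libraries. The tables thus give neither the spread between libraries nor the number of reads behind a value, and no test could be made. A transcript is called higher or lower here where its FPKM differed at least 2-fold, after 0.1 had been added to each value, and reached 1 at either stage. Folds in the text are plain ratios of the FPKM values, while log2 ratios include the added 0.1 and are therefore smaller in size for low values.

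A hemoglobin molecule joins alpha-like with beta-like chains, and each is bound to a heme group. Birds keep the nucleus in their red cells and make several chains in turn. The first red cells of the embryo, which come from the yolk sac, carry embryonic chains, and the definitive red cells that replace them carry adult chains. In the chicken, the rho and epsilon beta-like chains are embryonic, the beta-A chain is that of the adult, and the beta-H chain is a minor chain. The alpha-A and alpha-D chains are made in both kinds of red cell. Myoglobin is a muscle protein with no part in red cells and is typical of fibers that rely on oxidative metabolism.

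The names of the 6 genes were matched to RefSeq. HBAA is the alpha-A globin (RefSeq symbol HBA1), HBAD is alpha-D, HBG1 is the beta-like chain R, or rho (RefSeq symbol HBBR), HBE1 is the beta-like chain H (synonym HBBH), and HBE is the beta-like chain E, or epsilon (synonym HBBE). The adult beta-A chain (RefSeq symbol HBBA) stands in the tables as HBG2. It was not among the chosen genes, but the other beta-like chains are set against it below. On galGal4, the 4 beta-like genes lay next to each other within 14.2 kb of chromosome 1. HBG1 (ENSGALT00000028027) lay at chr1:193716133-193717673, HBE1 (ENSGALT00000036371) at chr1:193720895-193722856, HBG2 (ENSGALT00000036373) at chr1:193723743-193726040 and HBE (ENSGALT00000028029) at chr1:193727983-193730347. The embryonic chains HBG1 and HBE were thus at the outer ends of the cluster. HBAA (ENSGALT00000039695) lay at 5125 to 5931 and HBAD (ENSGALT00000039703) at 8017 to 9433 of an unplaced scaffold. MB (ENSGALT00000020484) lay at chr1:51849854-51853554. Of the lncRNAs of the study, 0 lay within 300 kb of the beta-like genes and 0 within 300 kb of MB, and 0 lay on the scaffold of the alpha-like genes. That scaffold held only 2 entries in the same window, HBAA and HBAD, so that its 0 says nothing of lncRNAs near these genes. The positions are those of the loci in the tables, and exons were not given. Reads can be shared between globin genes of similar sequence, and how the authors' counting divided them was not tested.

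Of the 5 chosen chains, the alpha-like HBAA and HBAD were more abundant than each of the beta-like HBE1, HBG1 and HBE at every stage. At E16, HBAA had an FPKM of 1811 and ranked at place 65 of the 19937 entries, against an FPKM of 842 and place 86 at E11. HBAD had an FPKM of 414 at E16, against 231 at E11. HBE1 had an FPKM of 83.1 at E16, against 52.1 at E11. All 3 values were larger at E16, and HBAA was the only one of them to pass 2-fold, at 2.15-fold (log2 ratio 1.10). HBAD stood at 1.79-fold (log2 ratio 0.84) and HBE1 at 1.60-fold (log2 ratio 0.67). The adult beta chain HBG2, with an FPKM of 773 at E16, against 417 at E11, stood at 1.85-fold (log2 ratio 0.89), between HBAA and HBAD. Without a spread it cannot be said whether these 4 ratios differ from each other. They also rest on the authors' scaling. As a share of the summed FPKM of all entries, the globins differed less. All 6 globin chains together held 0.226% at E16, against 0.197% at E11, so that the call of HBAA rests on the FPKM scale.

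The embryonic chains were lower at E16. HBG1 had an FPKM of 0.394 at E16, against 20.0 at E11, and was 50.9-fold lower at E16 (log2 ratio -5.35). HBE had an FPKM of 0.259 at E16, against 8.05 at E11, and was 31.1-fold lower at E16 (log2 ratio -4.50). Of the 13483 transcripts past the filter on low values, 94 had a smaller ratio than HBG1 and 157 a smaller ratio than HBE. With MB, which did not pass 2-fold over this step, 1 of the 6 genes was higher and 2 were lower at E16. Among all transcripts past the filter, 27.9% passed 2-fold between E11 and E16, 15.1% as higher and 12.8% as lower at E16, so that 3 of 6 is a count too small to set apart from that background.

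**Figure D1:**
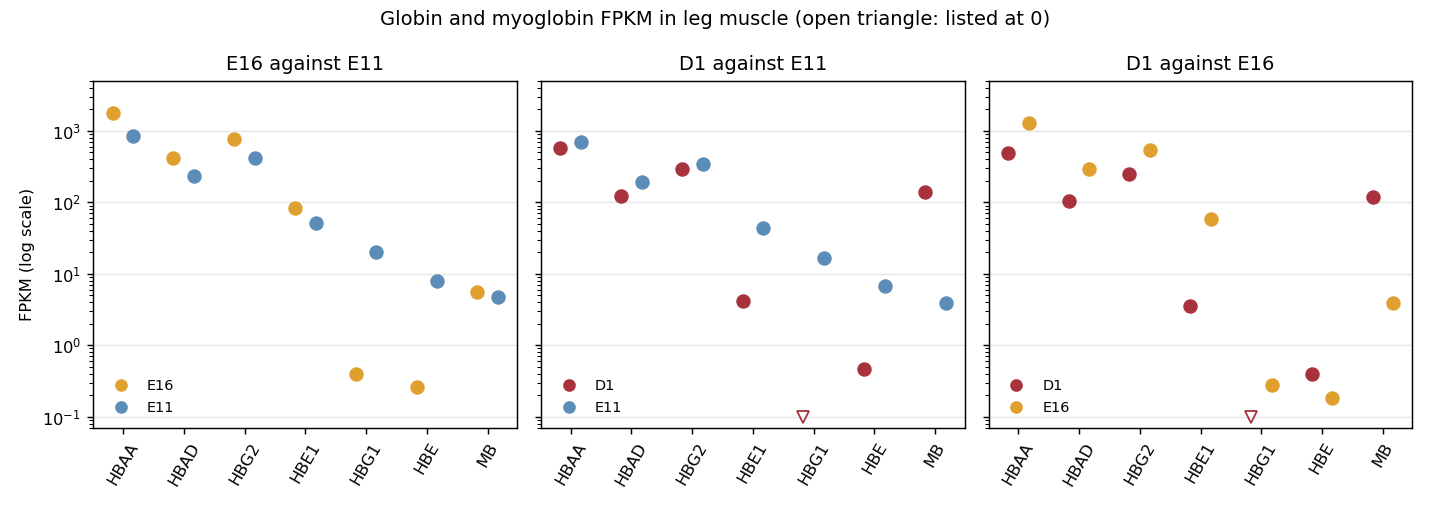
FPKM (log axis) of the 5 hemoglobin chains, the adult beta chain HBG2 and MB in each of the 3 tables, with 1 point per stage merged over 2 libraries and no error bars. HBAA and HBG2 stand at the top at every stage, HBG1 and HBE stand below 1 at E16 and D1, and MB stands at 139 and 118 at D1 in its 2 tables and at 3.89 to 5.61 before. The open triangle marks HBG1 listed at 0 at D1.

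Between E16 and D1 all chains that had been abundant were lower. HBAA had an FPKM of 495 at D1, against 1274 at E16, and was 2.58-fold lower at D1 (log2 ratio -1.36). HBAD had an FPKM of 104 at D1, against 291 at E16, and was 2.80-fold lower at D1 (log2 ratio -1.48). HBG2 had an FPKM of 249.6 at D1, against 544 at E16, and was 2.18-fold lower at D1 (log2 ratio -1.12). The log2 ratios of HBAA, HBAD and HBG2 thus lay between -1.48 and -1.12. HBE1 had the smallest ratio of the 4. Its FPKM was 3.56 at D1, against 58.4 at E16, 16.4-fold lower at D1 (log2 ratio -4.00), and 80 of the 12125 transcripts past the filter had a smaller ratio. The embryonic chains were below an FPKM of 1 at both stages. HBE had an FPKM of 0.394 at D1, against 0.182 at E16, and HBG1 was listed at 0 at D1 and had an FPKM of 0.278 at E16. Neither passed the filter on low values, and no ratio is read from them. Of the 4 chosen genes that passed the filter, 3 globins were lower and MB was higher at D1. Among all transcripts past the filter, 23.0% passed 2-fold between E16 and D1, 11.4% as lower and 11.6% as higher at D1.

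Over the whole span, HBE1, HBE and HBG1 were lower at D1 than at E11, and MB was higher. The alpha-like chains stayed within 2-fold in FPKM. HBAA had an FPKM of 579.7 at D1, against 699 at E11 (log2 ratio -0.27). HBAD had an FPKM of 122 at D1, against 192 at E11 (log2 ratio -0.65), and HBG2 had 293 at D1, against 346 at E11 (log2 ratio -0.24). None of these 3 passed 2-fold in FPKM as the authors scaled it. As a share of the summed FPKM of all entries, the globins were further apart. All 6 globin chains together held 0.0821% at D1, against 0.197% at E11, a difference of more than 2-fold. That the 3 chains stayed within 2-fold thus rests on the FPKM scale. HBE1 had an FPKM of 4.17 at D1, against 43.2 at E11, and was 10.4-fold lower at D1 (log2 ratio -3.34). HBE had an FPKM of 0.461 at D1, against 6.68 at E11, and was 14.5-fold lower at D1 (log2 ratio -3.60). HBG1 was listed at 0 at D1, against an FPKM of 16.6 at E11. It counts as lower by the rule, but no fold is given for a listed 0. HBE1 thus passed the 2-fold limit downwards by D1 only, whereas HBG1 and HBE had passed it by E16. Of the 6 genes, 1 was higher and 3 were lower at D1 than at E11, beside 43.2% of all transcripts past the filter that passed 2-fold, 22.1% as higher and 21.1% as lower at D1.

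**Figure D2:**
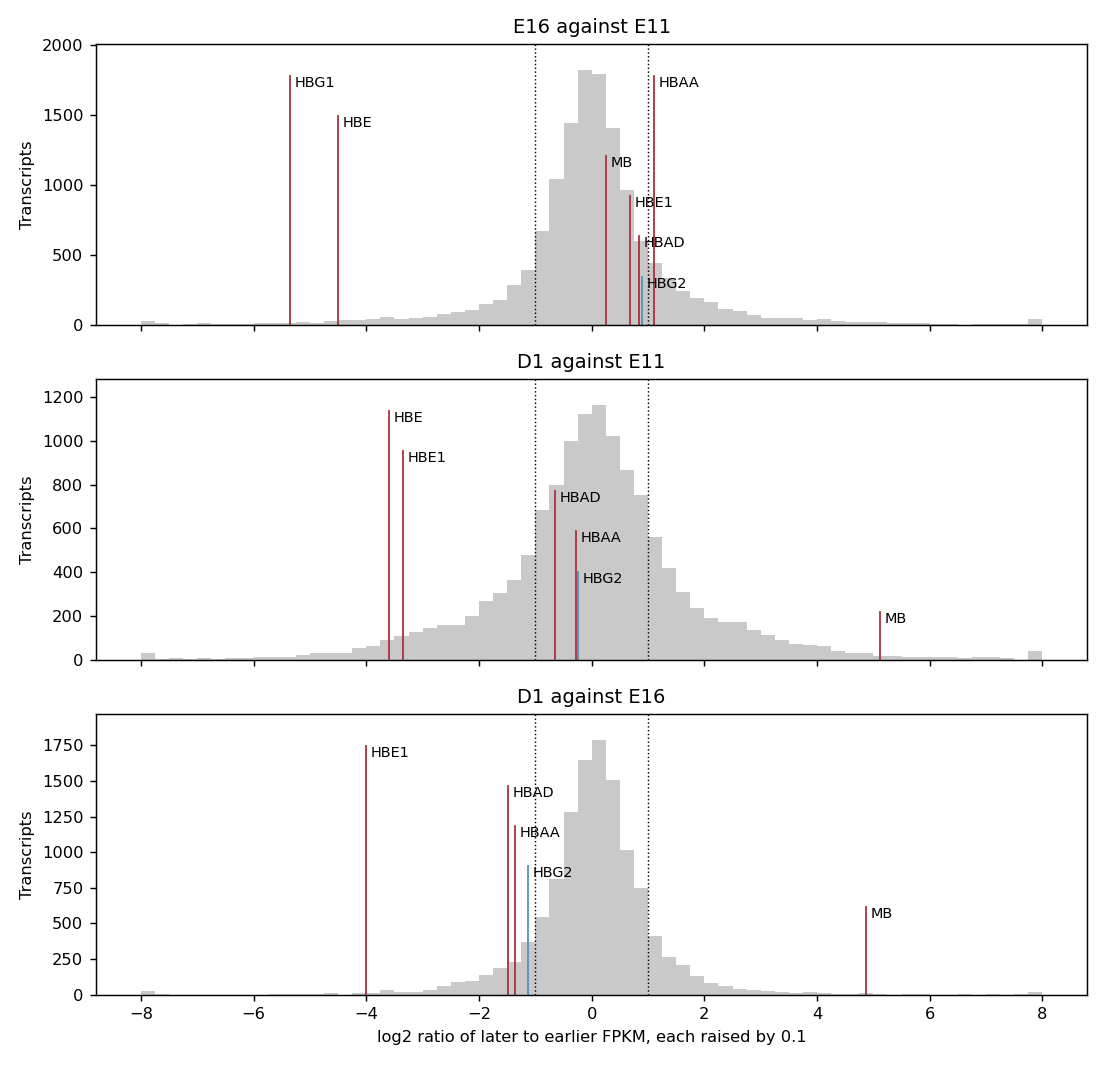
Number of transcripts past the filter (grey bars) by the log2 ratio of the later over the earlier stage, after 0.1 was added to each FPKM, with the 5 hemoglobin chains and MB as red lines and HBG2 as blue lines. Line heights only separate the names, dotted lines mark 2-fold, and ratios beyond 8 either way are drawn in the outer bars. HBG1 and HBE lie at -5.35 and -4.50 for E16 against E11, and MB lies at 4.87 for D1 against E16. HBG1 is left out where it was listed at 0, and HBE is left out for D1 against E16.

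The 3 tables were scaled separately, but within a stage they held the same levels up to a factor. At E11, a transcript stood higher in the table with E16 than in that with D1 by a median factor of 1.205 (1.204 to 1.205 from the 5th to the 95th percentile of 12173 transcripts). Steps can therefore be joined. By way of E16, HBAA at D1 came to 0.835 times its level at E11, and directly to 0.829 times. MB came to 35.7 times either way. The comparisons share libraries, so that this says nothing of how well they repeat.

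FPKM is scaled to length, so that the chains can be set beside each other within a stage. Of the summed FPKM of the 4 beta-like chains, the adult chain HBG2 held 83.9% at E11, 90.2% at E16 and 98.4% at D1. HBE1 held 10.5% at E11, 9.70% at E16 and 1.40% at D1. HBG1 held 4.03% at E11 and 0.0460% at E16, and was listed at 0 at D1. HBE held 1.62% at E11, 0.0303% at E16 and 0.155% at D1. The adult chain thus gained its share in a pair of steps, with the embryonic chains giving way up to E16 and HBE1 up to D1. The alpha-like chains changed little among themselves. HBAA held 78.5% of their summed FPKM at E11, 81.4% at E16 and 82.6% at D1, and HBAD held the rest.

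Over the 5 chosen chains, HBE, HBE1 and HBG1 together held 3.63% of the summed FPKM at E16, against 6.95% at E11, and 0.655% at D1, against 6.95% at E11. Without HBE1, the embryonic HBE and HBG1 held 0.0293% at E16, against 2.55% at E11, and 0.0657% at D1, against 0.0294% at E16. The last difference rests on values below an FPKM of 1 and goes against the direction of the sum with HBE1. The summed FPKM of the alpha-like chains was 2.16 times that of the beta-like chains, HBG2 included, at E11, 2.60 times at E16 and 2.36 times at D1. HBZ, the embryonic alpha-like chain (RefSeq synonym HBAP), had 3 entries, on chromosome 14 and on an unplaced scaffold, and each was listed at 0 at every stage. No upper limit was computed for a listed 0, since the tables hold no read counts.

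**Figure D3:**
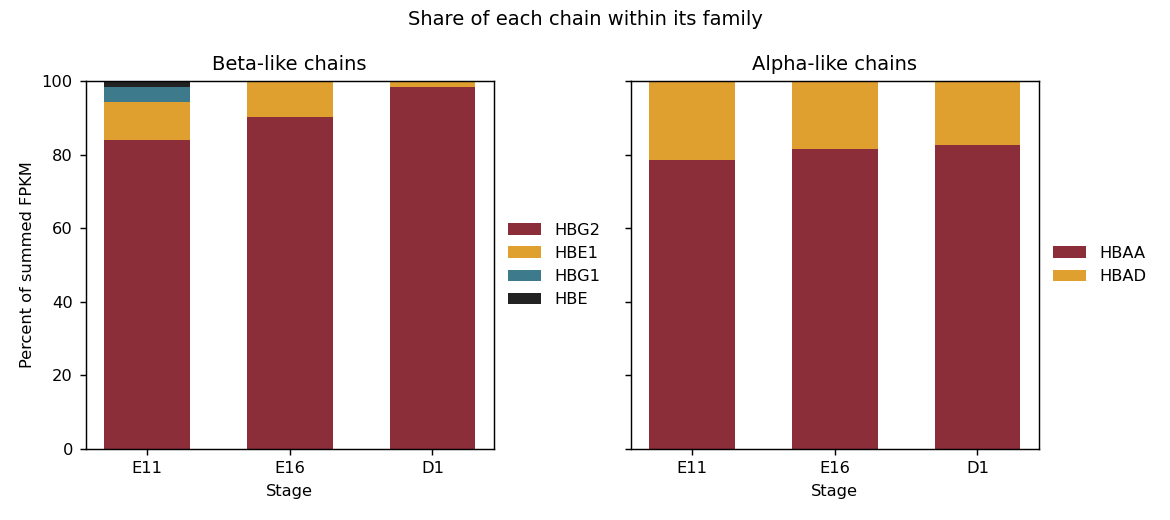
Percent of the summed FPKM held by each beta-like chain (left) and each alpha-like chain (right) at E11, E16 and D1, as stacked bars. HBG2 holds 83.9%, 90.2% and 98.4% of the beta-like sum at E11, E16 and D1, and HBAA holds 78.5%, 81.4% and 82.6% of the alpha-like sum.

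All 6 globin chains together, HBG2 included, held 0.197% of the summed FPKM of all entries at E11, 0.226% at E16 and 0.0821% at D1. In FPKM they summed to 3082 at E16, against 1570 at E11, and to 999 at D1, against 1303 at E11. The sum of all entries differed between stages, so that the size of a change depends on the scale. Calls were made on FPKM only. In a bulk tissue, fewer red cells, less globin RNA per red cell and more RNA from other cells cannot be told apart. The methods do not say whether blood was washed from the muscle. Other genes of the red cell are given beside the globins, but which of these applies was not tested. SLC4A1, the anion exchanger of the red cell membrane, had an FPKM of 4.34 at D1, against 4.52 at E16 (log2 ratio -0.06). EPB42, a protein of the red cell membrane skeleton, had 3.26 at D1 and 4.33 at E16 (log2 ratio -0.40), and RHAG, a membrane channel of red cells, had 3.89 at D1 and 3.38 at E16 (log2 ratio 0.20). None of these 3, which were picked after their values were seen, passed 2-fold. Others of the membrane genes, ADD2 and DMTN, were higher at D1 than at E16 (log2 ratios 1.84 and 1.63). The ratio of HBAA to SLC4A1 in FPKM was 182 at E11, 282 at E16 and 114 at D1. Such a ratio depends on the gene chosen. Of 12 genes of the wider list below, 5 had a larger ratio of E16 to E11 than HBAA and 7 had a smaller one. Between E11 and E16 none of these 3 genes passed 2-fold either, while 6 others of the wider list below were higher at E16. SLC4A1 had an FPKM of 6.43 at E16, against 4.63 at E11 (log2 ratio 0.47), EPB42 had 6.16 at E16 and 3.91 at E11 (log2 ratio 0.64), and RHAG had 4.80 at E16 and 2.82 at E11 (log2 ratio 0.75).

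**Figure D4:**
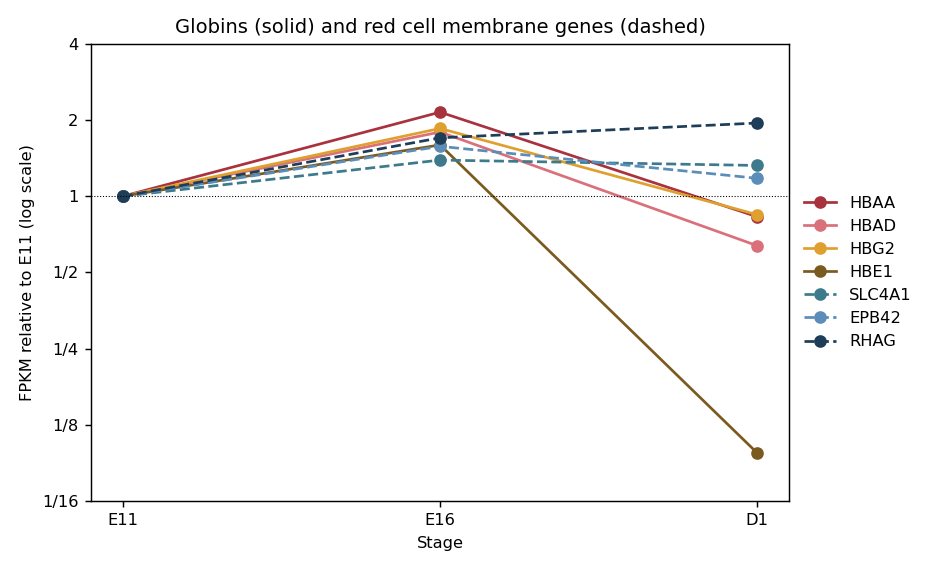
FPKM at E11, E16 and D1 relative to E11 (log axis), with globins as solid lines and the red cell membrane genes SLC4A1, EPB42 and RHAG as dashed lines. These membrane genes were picked after their values were seen. E16 is taken from the table of E16 against E11 and D1 from that of D1 against E11, with 1 merged value per stage. HBAA stands at 2.15 at E16 and 0.829 at D1, and HBE1 ends at 0.0965.

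Of the list of red cell membrane and cytosol genes, 14 of 18 symbols were in the tables. Between E11 and E16, 6 of the 12 that passed the filter were higher and 0 were lower at E16, with a median log2 ratio of 0.96, beside 0.00 for all transcripts. Of all transcripts past the filter, 15.1% were higher and 12.8% were lower over this step. Between E16 and D1, 2 of 13 were higher (ADD2 and DMTN, both of the membrane skeleton) and 0 were lower, with a median of 0.18, beside 0.05 for all transcripts. Of all transcripts, 11.6% were higher and 11.4% were lower over that step. HBAA had a smaller ratio over that step than each of the 13. Between E11 and D1, 7 of 13 were higher and 0 were lower at D1, with a median of 1.29, beside 0.03 for all transcripts. Of all transcripts, 22.1% were higher and 21.1% were lower at D1 than at E11. The list is led by genes that other cells use as well. TMOD1, which caps actin filaments in red cells and in muscle, had an FPKM of 385 at E16, against 33.8 at E11, and CA2, a carbonic anhydrase, had 69.2 at E16 and 15.8 at E11. GYPC, a glycophorin, had 80.5 at E16 and 44.5 at E11.

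Heme synthesis supplies the group that both hemoglobin and myoglobin hold. Of 10 genes in the tables, 1 (ABCB10) was higher at E16 than at E11 and 0 were lower, with a median log2 ratio of 0.13. Among all transcripts, 15.1% were higher and 12.8% were lower at E16. Between E16 and D1, 2 were higher (FECH and FLVCR1) and 0 were lower, with a median of 0.25, beside 11.6% and 11.4% of all transcripts. Over the whole span 3 were higher (ABCB10, ALAS1 and FECH) and 0 were lower at D1, beside 22.1% and 21.1% of all transcripts. ALAS1, the housekeeping form of the first enzyme of the path, had an FPKM of 37.8 at D1, against 15.4 at E11, and FECH, which inserts the iron, had 22.3 at D1 and 9.56 at E11. FLVCR1 exports heme and had an FPKM of 3.97 at D1, against 1.28 at E16. The red cell form ALAS2 had no entry under that symbol and was not analysed here.

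Among globin regulators, BCL11A, which is known in humans and mice for silencing fetal or embryonic globin genes, had an FPKM of 2.36 at E16, against 6.31 at E11, and 1.01 at D1, against 5.24 at E11. It passed 2-fold as lower in both. SOX6, which in mice also acts on embryonic globin genes and which is a regulator of muscle fibers as well, had an FPKM of 87.4 at E16, against 35.0 at E11 (log2 ratio 1.32). LDB1, a partner of erythroid transcription factors that many cells use, had 5.39 at E16 and 13.8 at E11. GFI1B, a transcriptional repressor that acts in red cell and platelet development, had 1.16 at D1 and 0.158 at E11. It was low and passed the filter in that comparison only. In all, 9 genes of this list, which holds the globins HBG2 and CYGB as well, passed the filter between E11 and E16. Of these, 1 (SOX6) was higher and 3 (BCL11A, LDB1 and ZFPM1) were lower at E16, beside 15.1% and 12.8% of all transcripts. ZFPM1 was low, with an FPKM of 0.527 at E16, against 1.45 at E11. Between E11 and D1, 2 of 10 (GFI1B and SOX6) were higher and 1 (BCL11A) was lower at D1, beside 22.1% and 21.1% of all transcripts. Which cells this RNA came from was not tested. Symbols of GATA1, KLF1, TAL1 and NFE2 had no entry and were not analysed here. CYGB, a globin of connective tissue cells, had an FPKM of 22.8 at E16, against 23.4 at E11, and of 9.55 at D1 and 16.1 at E16 (log2 ratio -0.74).

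The tissue markers and other cell types were as follows. The muscle list summed to an FPKM of 32405 at E16, against 1205 at E11, and to 34195 at D1, against 22846 at E16, with 8 of 10 symbols in the tables and 0 of these listed at 0. ACTA1, the actin of skeletal muscle, had an FPKM of 15838 at E16, against 232 at E11. Of the 8, 6 were higher and 0 were lower at E16 than at E11, beside 15.1% and 12.8% of all transcripts past the filter. Between E16 and D1, 0 were higher and 2 (CAV3 and MYOG) were lower at D1, beside 11.6% and 11.4% of all transcripts. CAV3 had an FPKM of 53.6 at D1, against 129 at E16, and MYOG had 1.47, against 10.7. MYOG was lower at D1 than at E11 as well (log2 ratio -2.97). Vessel lining genes summed to 363 at E16, against 144 at E11, with 4 of 8 higher and 0 lower at E16, and to 363 at D1, against 256 at E16, with 1 higher (VWF) and 0 lower. Leukocyte and thrombocyte genes summed to 47.7 at E16, against 46.9 at E11, and to 19.6 at D1, against 33.7 at E16, where 3 of the 6 past the filter (CSF1R, CXCR4 and SPI1) were lower and 0 were higher at D1. GP9 and CD3E, markers of thrombocytes and T cells, were below an FPKM of 1 at every stage, and ITGA2B, another thrombocyte marker, was listed at 0 at E16. The part of other cell types in the globin values was not tested.

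Myoglobin differed little between E11 and E16 and was far higher at D1. MB had an FPKM of 5.61 at E16, against 4.68 at E11, a ratio of 1.20-fold (log2 ratio 0.25) that did not pass 2-fold. At D1 it had an FPKM of 118, against 3.96 at E16, and was 29.9-fold higher at D1 (log2 ratio 4.87). Only 45 of the 12125 transcripts past the filter had a larger ratio between E16 and D1. Over the whole span MB had an FPKM of 139 at D1, against 3.89 at E11, and was 35.7-fold higher at D1 (log2 ratio 5.12). By FPKM it ranked at place 587 of the 19937 entries at D1 and at place 8860 at E11. The ratio of HBAA to MB in FPKM was 4.18 at D1, against 322 at E16, so that HBAA was still the more abundant per length after hatching.

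Genes of oxidative and slow fibers were mostly higher already at E16. Of the 16 in the tables, which all passed the filter, 14 were higher at E16 than at E11 and 0 were lower, with a median log2 ratio of 1.80. Among all transcripts, 15.1% were higher and 12.8% were lower at E16. Of these 16, 15 had a larger ratio than MB over this step, and TFAM, a factor of mitochondrial DNA, had a log2 ratio of 0.25. This was not particular to these genes. Of the muscle list, with a median of 2.95, 7 of 8 had a larger ratio than MB. So had 8 of 8 vessel lining genes, but only 2 of 6 leukocyte and thrombocyte genes. Between E16 and D1, 0 genes of these 3 lists had a larger ratio than MB. Between E16 and D1, 8 were higher and 0 were lower, with a median of 1.04, and each of the 16 had a smaller ratio than MB. Among all transcripts, 11.6% were higher and 11.4% were lower at D1. Over the whole span 15 were higher and 0 were lower at D1 than at E11, with a median of 2.80, and 4 had a larger ratio than MB. Among all transcripts, 22.1% were higher and 21.1% were lower at D1 than at E11. CKMT2, the mitochondrial creatine kinase of muscle, had an FPKM of 39.2 at E16, against 0.198 at E11, and 301 at D1, against 27.7 at E16. FABP3, which binds fatty acids in muscle, had 773 at E16, against 44.9 at E11, and 2497 at D1, against 545 at E16. CD36, a fatty acid transporter, had 118 at E16, against 6.49 at E11, and TNNC1, the troponin C of slow and cardiac muscle, had 2759 at E16, against 778 at E11. PPARGC1A, a coactivator of mitochondrial genes, chosen after its values were seen, had an FPKM of 22.0 at E16, against 4.50 at E11, and 21.7 at D1, against 15.5 at E16.

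**Figure D5:**
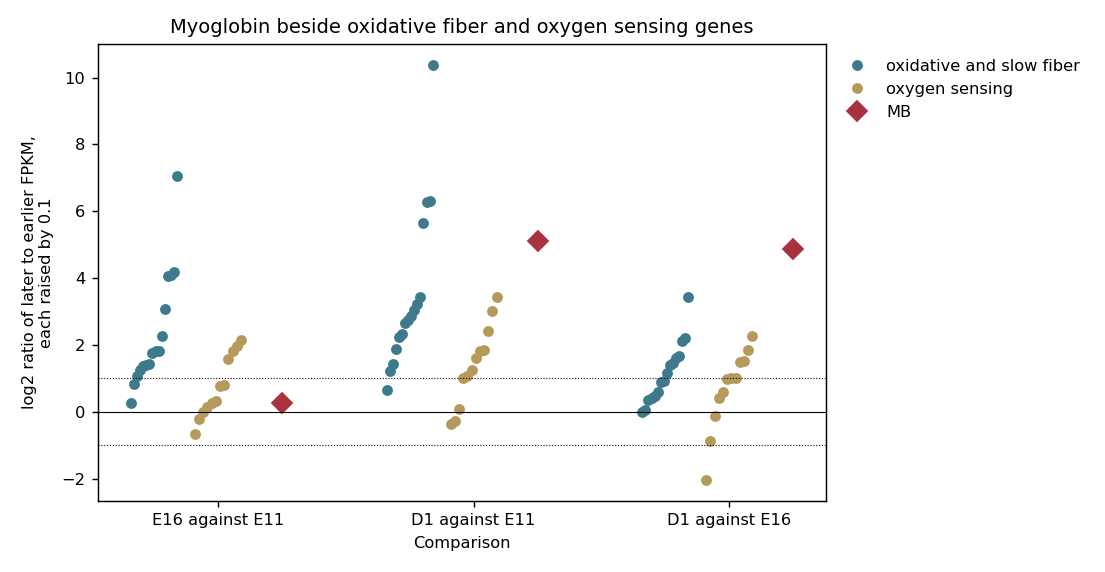
The log2 ratio of the later over the earlier stage, after 0.1 was added to each FPKM, for 16 oxidative and slow fiber genes, 12 oxygen sensing genes and MB in the 3 comparisons. Each point is 1 gene, and dotted lines mark 2-fold. MB stands at 0.25 for E16 against E11, below 15 of the 16 fiber genes, and at 4.87 for D1 against E16, above all 28 list genes.

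Of the oxygen sensing genes, 4 of 12 were higher at E16 than at E11 and 0 were lower, beside 15.1% and 12.8% of all transcripts. At D1, 6 were higher and 1 (EGLN3) was lower than at E16, beside 11.6% and 11.4% of all transcripts. The median log2 ratio over that step was 0.99, beside 0.05 for all transcripts. EPAS1, the hypoxia-inducible factor 2 alpha, had an FPKM of 108 at D1, against 37.3 at E16. EGLN1, an oxygen-dependent prolyl hydroxylase that marks these factors for breakdown, had 275 at D1, against 56.5 at E16, the largest ratio of the list over that step (log2 ratio 2.28). EGLN3, another such hydroxylase, had 3.72 at D1, against 15.6 at E16. BNIP3, a mitochondrial protein induced by lack of oxygen, had 135 at D1, against 37.3 at E16.

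The genes whose 3 log2 ratios, 1 per table, lay nearest to those of a member were sought among 5106 named transcripts. Since steps can be joined, the ratio over the whole span nearly follows from those of the single steps. The distance therefore does not rest on 3 separate measures. These had an FPKM of at least 10 at either stage of every table. The members themselves and the lncRNAs were not candidates, so that HBAA and HBAD could not be named for each other. Nearest to MB were PM20D2 (Euclidean distance 0.97), HIGD1A (2.06) and MLF1 (2.13). PM20D2 had an FPKM of 128 at D1, against 7.13 at E16, and 10.1 at E16, against 7.96 at E11. Nearest to HBAA were PFKFB4 (0.17), POLG2 (0.19) and MMP23B (0.22), and nearest to HBAD were PRELP (0.12), U2 (0.18) and HOMER3 (0.18). Nearest to HBE1 were a transcript named col14A1 (0.59), PI15 (0.83) and JSC (1.03). The distances to MB were larger than those to the alpha-like chains, but few transcripts had ratios as large as MB, so that this says little. MLF1 passed 2-fold between E11 and E16 (log2 ratio 1.24), where MB did not (0.25). HBE and HBG1 did not pass the filter in every table and were not compared.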

How the data were processed

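Leg muscle of 3 stages was compared, with 2 libraries per stage (6 in all), grouped by the age in the labels. The FPKM values were made by the authors, who, per the labels and methods, used Trim Galore, Bowtie, TopHat, Cufflinks and Cuffdiff on galGal4. Each of the 3 deposited tables holds 1 FPKM per transcript and stage, merged over both libraries and scaled within the pair of stages. The remaining columns hold the authors' own fold changes, test statistic, p-values and q-values and were not used. Entries marked as holding too many fragments (10, 16 and 16) were left out of ratios and counts. They were not left out of the summed FPKM of all entries or of the places by FPKM.

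Log2 ratios of later to earlier FPKM were taken with a pseudocount of 0.1, which understates the change of low genes. A transcript was called at 2-fold, among those with an FPKM of at least 1 at either stage. A gene in a list was represented by its most abundant transcript. The 9 lists held 144 genes. The rule for names took, from each list, the 3 genes of highest mean FPKM over E11 and E16 and, in each comparison, the 2 past 2-fold that differed most. Those that bear on the globins and MB are described, and others where stated or where 5 or fewer were counted. The members and lists were chosen with earlier results of these data known. Locus starts were taken as counted from 0 in the tables, which could not be checked, and are printed counted from 1. Gene names came from RefSeq (assembly GRCg7b), in which all 6 members matched. Alternatives were other pseudocounts and filters, centring, sums per gene and other denominators. Python 3.11.15, numpy 2.4.6, pandas 2.3.3 and matplotlib 3.10.9 were used.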

Additional observations from a re-analysis of the deposited data

How the results depend on the processing

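The counts of globin and myoglobin transcripts past 2-fold stayed within 1.5 times of 3, 4 and 4 for E16 against E11, D1 against E11 and D1 against E16 under pseudocounts of 1 and 0.01, no filter, an FPKM minimum of 10, centring on the median and sums per gene symbol. The share of HBE, HBE1 and HBG1 differed by -3.32 percentage points for E16 against E11, -6.29 for D1 against E11 and -2.97 for D1 against E16. Without HBE1, the difference was -2.49 points for D1 against E11 and turned to 0.0363 points for D1 against E16, where both shares rest on FPKM below 1. With HBG2 among the globins, chosen after seeing the data, the differences were -2.39, -4.64 and -2.25 points. With a pseudocount of 1, the log2 ratios of HBG1 and HBE for E16 against E11 were -3.92 and -2.85, and that of HBE for D1 against E11 was -2.39. Centring moved no member's ratio by more than 1.5 times. It could not, since the median log2 ratios of all transcripts were 0.00, 0.03 and 0.05. Sums per gene symbol could not change the members' values either, since each symbol had 1 transcript. The calls were not repeated on shares of the summed FPKM of all entries. No paired analysis was possible because the tables merge both libraries of a stage, and for the same reason no library could be left out. The tables hold no read counts, so that no counting error could be given, also for the chains with an FPKM below 1.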

Other observations

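Genes that handle heme and iron passed 2-fold about as often as all transcripts did between neighbouring stages. Of 16 in the tables, 3 of the 15 past the filter (BLVRA, STEAP3 and TFRC) were higher and 1 (FLVCR2) was lower at E16 than at E11, beside 27.9% of all transcripts past 2-fold. At D1, 2 of 14 (HMOX2 and TFRC) were higher and 2 (SLC46A1 and STEAP3) were lower than at E16, beside 23.0% of all transcripts. TFRC, the receptor by which cells take up transferrin-bound iron, had an FPKM of 48.1 at E16, against 23.8 at E11, and 79.1 at D1, against 33.9 at E16. FTH1, the ferritin heavy chain that stores iron, had 655 at E16, against 467 at E11, and 787 at D1, against 461 at E16. STEAP3, an iron reductase known from the red cell, had 13.3 at E16, against 1.83 at E11, and 3.24 at D1, against 9.38 at E16. STEAP3 was thus past 2-fold as higher at E16 than at E11 and as lower at D1 than at E16, as was HBAA. Over the whole span they differed, with STEAP3 higher at D1 than at E11 (log2 ratio 1.27) and HBAA within 2-fold (-0.27). TFRC was higher over both steps. Over the whole span 5 of 15 were higher and 1 was lower at D1, beside 22.1% and 21.1% of all transcripts.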
